A study of Mus musculus with 2 samples.

Results

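The genes described here are the ATF4 programme and the cytosolic aminoacyl-tRNA synthetases, 36 of the 34745 genes in the expression table, chosen by symbol. They fall into 4 roles: 6 regulators and stress targets, 8 enzymes of amino acid synthesis, 2 transporter subunits and 20 synthetase genes. The samples were primary bone marrow-derived macrophages of C57BL/6 mice, all treated with lipopolysaccharide (LPS), the bacterial product that activates macrophages. 1 library came from cells transfected with AclyE14-ASO, an antisense oligonucleotide (ASO) named for Acly, and 1 from cells transfected with Control-ASO. The labels used here give neither the dose nor the time of LPS, no age of the mice, and do not say how many animals or cultures each library holds.

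In the integrated stress response, kinases that sense amino acid shortage, misfolded protein, double-stranded RNA or haem shortage phosphorylate the initiation factor eIF2. General translation then drops while translation of the Atf4 mRNA increases, so the level of Atf4 mRNA need not follow the amount of ATF4 protein. ATF4 pairs with C/EBP proteins on a response element in the promoters of genes for amino acid synthesis, amino acid uptake and tRNA charging. Aminoacyl-tRNA synthetases join each amino acid to its tRNA. In activated macrophages the serine and folate pathways supply nucleotides, glutathione and methyl groups.

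The AclyE14-ASO library held 12751076 gene counts and the Control-ASO library 14215397. Acly itself had 768 counts (7.35 FPKM, fragments scaled to gene length and library size) in the AclyE14-ASO library, against 1549 counts (13.3 FPKM) in the Control-ASO library. Its count ratio, AclyE14-ASO over Control-ASO after division by the library totals, was 0.553 with a 95% counting interval of 0.506 to 0.603. Each condition had 1 library, so no test was run, no difference has a replicate check, and the intervals cover counting error only. A gene counted as measured at a mean of at least 1 FPKM (8658 genes), and was called higher or lower at a count ratio beyond 1.5-fold. Among those genes 9.4% were 1.5-fold higher and 14.4% were 1.5-fold lower, and the median log2 count ratio was -0.16.

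The macrophage identity of both libraries was checked on 10 markers, of which 9 were measured, and Cx3cr1 was at 0 counts in both. Of the 9, 3 were higher by 1.5-fold (all measured genes: 9.4%) and 1 was lower (all measured genes: 14.4%). Lyz2 was at 12276 FPKM with AclyE14-ASO and 9798 FPKM with Control-ASO, and Csf1r at 50.7 and 64.7 FPKM. Itgam was higher, at 43.2 FPKM with AclyE14-ASO and 9.12 FPKM with Control-ASO. Also higher were Cd14 (2270 and 1020 FPKM) and Fcgr1 (68.2 and 34.7 FPKM), while Cd68 was lower (590 and 1059 FPKM). Fibroblast markers were more abundant in the AclyE14-ASO library. Their summed level was 212 FPKM there, against 49.0 FPKM with Control-ASO. Of the 10, 7 were measured and all 7 were higher by 1.5-fold (all measured genes: 9.4%). Of the 7, Pdgfra passed 1 FPKM only in the AclyE14-ASO library, so its place in that count follows in part from the filter. Of the 8 proliferation markers 5 were measured, and 4 of these were higher (all measured genes: 9.4%). Of the 4, Cdc20 and Cdk1 passed 1 FPKM only in the AclyE14-ASO library. The summed level of the list, led by Pcna, was 81.3 FPKM with AclyE14-ASO and 75.6 FPKM with Control-ASO. Of the 8 neutrophil markers 2 were measured, S100a8 (ratio 2.10) and Csf3r (ratio 1.58), both higher by 1.5-fold (all measured genes: 9.4%). Ly6g, S100a9, Elane and Camp were at 0 counts in both libraries. The summed level of the neutrophil list was 48.1 FPKM with AclyE14-ASO and 23.9 FPKM with Control-ASO. Of the 5 endothelial markers 2 were measured, with Tek and Emcn at 0 counts in both libraries and the measured genes went opposite ways. Kdr was at 5.49 FPKM with AclyE14-ASO and 11.1 FPKM with Control-ASO (ratio 0.496), and Cdh5 at 1.97 and 1.09 FPKM (ratio 1.80). None of the 6 lymphocyte markers was measured. The part of these differences in the results below was not tested, and in bulk RNA fewer cells of a type and less RNA per cell cannot be told apart.

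The promoters are shown first because ATF4 acts through a short element. The C/EBP-ATF response element was searched as TGATGNAAN on both strands, from 250 bases before to 50 bases after each RefSeq gene start (GRCm38.p6). Promoter sequences were matched for 27 of the 36 genes, and 9 of the 27 held the element (33.3%). It was present for 4.50% of the 27025 genes in the promoter table and for 2.86% of the 6707 measured genes matched there. The genes without a matched promoter were Slc7a5, Cars, Hars, Lars, Mars, Nars, Rars, Vars and Wars. A match describes letters and is not a shown binding site.

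The 250 bases before the start are printed in full for Chac1 (chr2:119350992-119351241, plus strand) and Aars (chr8:111033592-111033841, plus strand), the members of their roles with the lowest count ratios. Matches to the element on either strand are in capitals. The start used here is that of RefSeq, and the GENCODE span of Aars given below begins upstream of the printed bases.
Chac1: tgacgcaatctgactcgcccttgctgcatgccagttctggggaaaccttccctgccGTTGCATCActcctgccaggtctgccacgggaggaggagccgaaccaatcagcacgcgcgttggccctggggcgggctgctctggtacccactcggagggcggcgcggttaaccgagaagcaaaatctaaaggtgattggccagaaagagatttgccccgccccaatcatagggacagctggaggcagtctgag
Aars: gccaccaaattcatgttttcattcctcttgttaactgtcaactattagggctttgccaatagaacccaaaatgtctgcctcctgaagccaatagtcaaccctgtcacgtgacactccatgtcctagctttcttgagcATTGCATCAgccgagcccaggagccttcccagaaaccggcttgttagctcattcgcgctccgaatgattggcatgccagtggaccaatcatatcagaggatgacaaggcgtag

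The element and its flanks are given for the other 7 genes that held it, so that the cores can be compared, each 5′ to 3′ on the strand of its gene. The matches of Trib3, Yars and Iars begin after the start.
Tars: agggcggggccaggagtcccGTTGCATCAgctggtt
Trib3: cagcagcagattagctcaggTTTACATCA
Yars: agcggagcgacgagctcagcTGATGCAAC
Gars: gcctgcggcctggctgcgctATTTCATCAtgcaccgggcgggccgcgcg
Asns: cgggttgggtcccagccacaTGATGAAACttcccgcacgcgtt
Iars: ttgagcctggcactgtcagtATTGCATCA
Pycr1: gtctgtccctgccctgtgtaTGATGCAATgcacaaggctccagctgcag
These stretches lie at chr15:11399659-11399694 (Tars, minus strand), chr2:152344039-152344067 (Trib3, minus), chr4:129189886-129189914 (Yars, plus), chr6:55037950-55037998 (Gars, plus), chr6:7693210-7693252 (Asns, minus), chr13:49682116-49682144 (Iars, plus) and chr11:120643823-120643871 (Pycr1, minus). Aars held a further match just after its start, read as gacaaggcgtagcgggtcacTTTTCATCA at chr8:111033830-111033858.

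Over all 36 genes the shift was small. 35 were measured, 6 were lower by 1.5-fold (17.1%, against 14.4% of all measured genes), 0 were higher (against 9.4%), and 29 lay between. At a log2 ratio of at least 0.32 either way, 16 of the 35 were lower, against 33.7% of all measured genes, and 1 was higher, against 16.4%. At 2-fold, 1 was lower, against 3.36% of all measured genes, and 0 were higher, against 4.9%. The ratio was below 1 for 28 of the 35 genes, against 64.9% of all measured genes. Counting intervals lay wholly below 1 for 24 genes, against 44.2% of all measured genes, and wholly above 1 for 3 genes, against 21.7%. Whether an interval includes 1 also depends on the number of counts of a gene, and these shares were not matched for counts. In all, 22 of the 35 lay below the median gene, which 50% of measured genes do by definition. The median log2 count ratio was -0.27, compared with -0.16 for all measured genes. The roles differed: the median was -0.60 for the regulators and stress targets, -0.38 for the amino acid enzymes, -0.06 for the transporters and -0.22 for the synthetases. Scaling by TMM (trimmed mean of M values) raised every log2 ratio by 0.10 and turned the transporter median to 0.04, while the other 3 stayed negative.

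**Figure D1:**
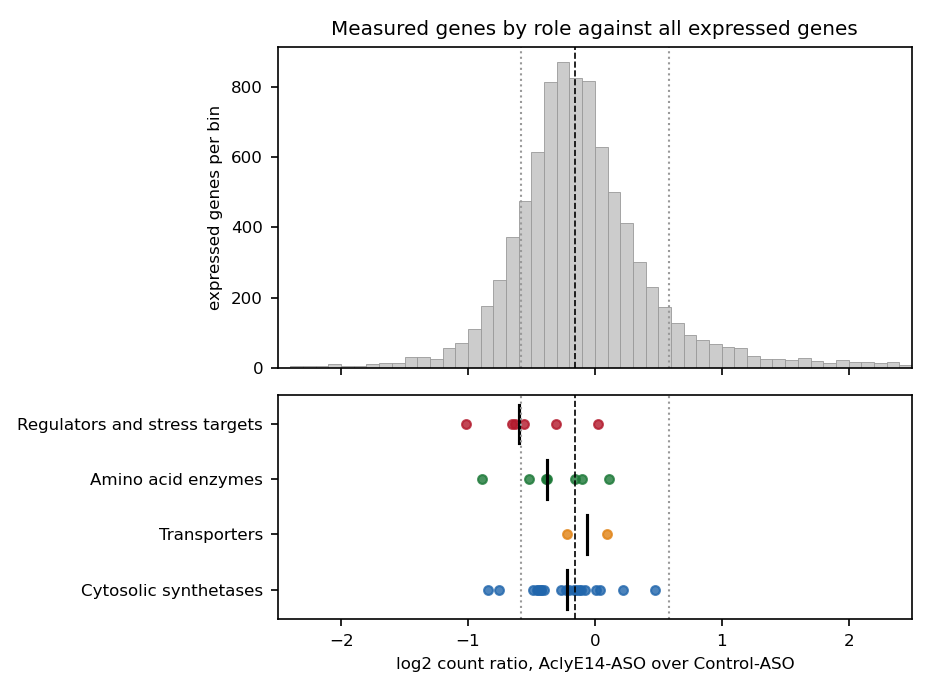
Log2 count ratios, AclyE14-ASO over Control-ASO, on the x axis: the upper panel counts the 8658 measured genes per bin (values beyond the axis are not drawn), and in the lower panel each point is a gene of the named role and the black bar the role's median. The dashed line marks the median of all measured genes (-0.16) and the dotted lines 1.5-fold; the regulators have the lowest role median, -0.60, while the synthetase median of -0.22 lies close to the dashed line.

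Regulators and stress targets had the lowest median of the 4 roles. Of the 6 genes 3 were lower by 1.5-fold (50%, against 14.4% of all measured genes), and 5 lay below the median gene. Atf4 (ENSMUSG00000042406, chr15:80255184-80257541, plus strand) had the highest deposited FPKM of the 36 genes in both libraries. It had 6327 counts (288 FPKM) with AclyE14-ASO and 10915 counts (445 FPKM) with Control-ASO. The count ratio was 0.646 (counting interval 0.626 to 0.667), and 12.3% of measured genes had a lower ratio.

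Chac1, which encodes an enzyme that breaks down glutathione, had the lowest ratio of the 36 genes. It had 313 counts (15.0 FPKM) with AclyE14-ASO, against 704 counts (30.3 FPKM) with Control-ASO, a ratio of 0.496 (0.432 to 0.567). Only 3.23% of measured genes had a lower one. Trib3, a pseudokinase induced by ATF4 that also binds it, had 917 counts (22.7 FPKM) with AclyE14-ASO and 1608 counts (35.7 FPKM) with Control-ASO, a ratio of 0.636 (0.586 to 0.690). With ratios scaled by TMM, Chac1 stayed beyond 1.5-fold, whereas Atf4 and Trib3 did not, at log2 ratios of -0.53 and -0.55.

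Sesn2, which encodes a leucine sensor that restrains mTORC1, lay just inside the 1.5-fold limit. Its counts were 1077 (24.3 FPKM) with AclyE14-ASO and 1771 (35.9 FPKM) with Control-ASO, a ratio of 0.678 (0.628 to 0.732). Ddit3, the gene for the transcription factor CHOP, had 1377 counts (46.9 FPKM) with AclyE14-ASO and 1895 counts (57.9 FPKM) with Control-ASO, a ratio of 0.810 (0.755 to 0.869). The exons of Ddit3 overlap those of the synthetase gene Mars on the other strand by 68 bases. The summed counts of Ddit3 and Mars had a ratio of 0.839 (0.793 to 0.887). Ppp1r15a encodes GADD34, which directs the phosphatase that removes phosphate from eIF2 and so closes the response. It did not share the lower level: 3566 counts (50.6 FPKM) with AclyE14-ASO, against 3905 counts (49.7 FPKM) with Control-ASO, gave a ratio of 1.02 (0.973 to 1.07).

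Serine synthesis runs from a glycolytic intermediate through Phgdh, Psat1 and Psph, and these genes did not move together. Psph, the phosphatase of the last step, had 157 counts (1.92 FPKM) with AclyE14-ASO and 325 counts (3.56 FPKM) with Control-ASO, a ratio of 0.539 (0.442 to 0.654). Phgdh, the dehydrogenase of the first step, had 463 counts (12.7 FPKM) with AclyE14-ASO and 740 counts (18.2 FPKM) with Control-ASO, a ratio of 0.698 (0.620 to 0.784). Psat1, the aminotransferase between them, had 1279 counts (14.4 FPKM) against 1321 counts (13.4 FPKM), a ratio of 1.08 (0.999 to 1.17). The exons of Psph overlap those of Cct6a on the other strand by 452 bases, and the sources used here do not say whether counting used the strand. The summed counts of Psph and Cct6a had a ratio of 0.667 (0.618 to 0.720), just inside the 1.5-fold limit.

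The mitochondrial folate enzymes and the other amino acid enzymes lay within 1.5-fold. Shmt2, which takes a carbon unit from serine, had 771 counts (26.2 FPKM) with AclyE14-ASO and 1125 counts (34.3 FPKM) with Control-ASO, a ratio of 0.764 (0.696 to 0.838). Mthfd2, which acts next on the folate-bound unit, had 3038 counts (48.0 FPKM) against 3775 counts (53.5 FPKM), and its ratio of 0.897 (0.855 to 0.941) was close to that of the median gene. Asns, asparagine synthetase and a classical ATF4 target, had 2021 counts (42.3 FPKM) with AclyE14-ASO and 2923 counts (54.8 FPKM) with Control-ASO, a ratio of 0.771 (0.728 to 0.816).

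In the proline branch, Aldh18a1, which makes the first committed intermediate, had 404 counts (5.76 FPKM) with AclyE14-ASO and 484 counts (6.19 FPKM) with Control-ASO, a ratio of 0.931 (0.813 to 1.06). Pycr1, the mitochondrial reductase of the last step, was scarce in both libraries, with 6 counts with AclyE14-ASO and 8 with Control-ASO, and is the gene of the 36 that was not measured. Of the 7 measured amino acid enzymes 1 was lower by 1.5-fold (14.3%, close to the 14.4% of all measured genes), and 4 lay below the median gene.

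Slc7a5 and Slc3a2 encode the light and heavy chains of the large neutral amino acid transporter, and Slc3a2 also serves other light chains. Slc7a5 had 1054 counts (19.2 FPKM) with AclyE14-ASO and 1367 counts (22.3 FPKM) with Control-ASO, a ratio of 0.860 (0.792 to 0.932). Slc3a2 was far more abundant, with 13162 counts (155 FPKM) against 13725 counts (145 FPKM), a ratio of 1.07 (1.04 to 1.10). Both lay within 1.5-fold, with counting intervals on opposite sides of 1.

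**Figure D2:**
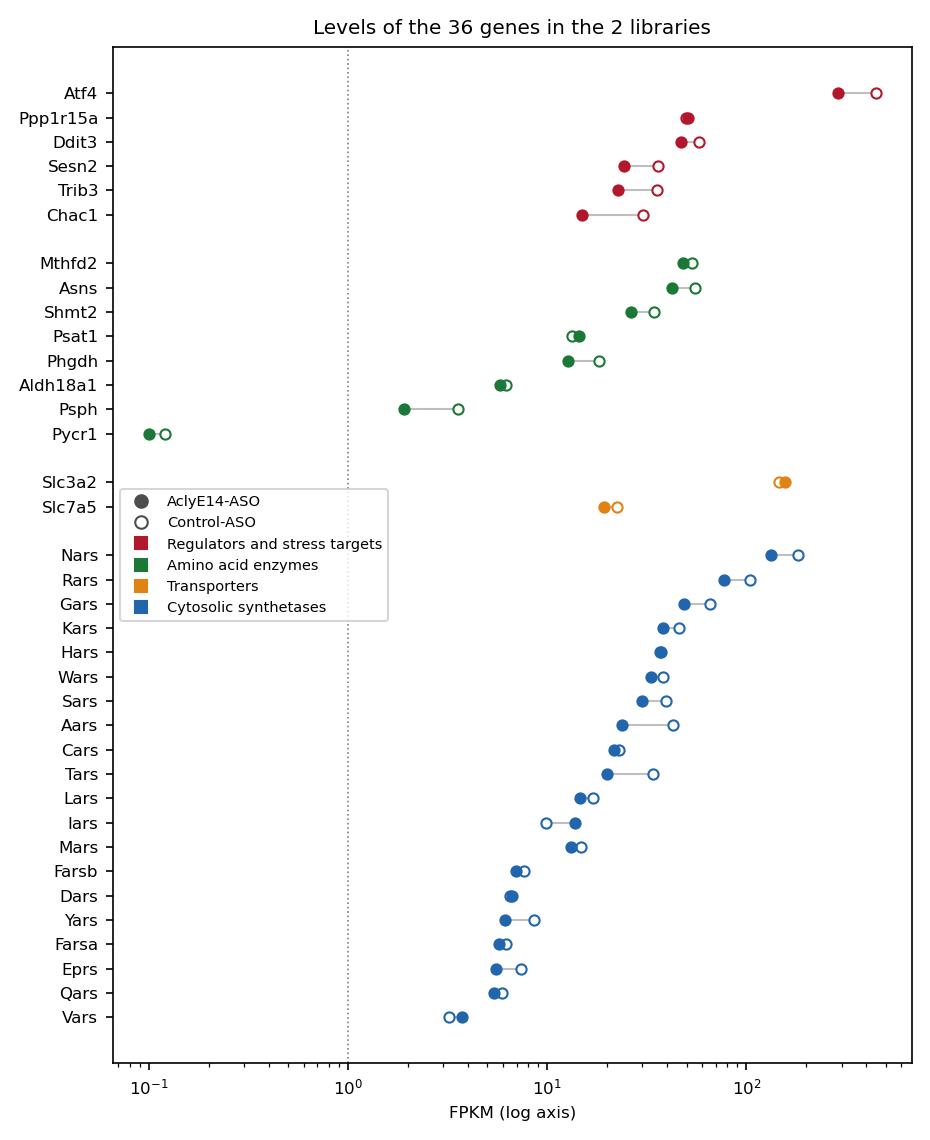
FPKM of each of the 36 genes on a log axis, filled points for the AclyE14-ASO library and open points for the Control-ASO library, ordered within each role by the AclyE14-ASO level; the dotted line marks 1 FPKM. Atf4 is at the top of the range in both libraries, Pycr1 lies below 1 FPKM, and the pairs lie farthest apart for Chac1, Psph, Aars and Tars.

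Among the 20 synthetase genes 2 were lower by 1.5-fold (10%, under the 14.4% of all measured genes) and 0 were higher (all measured genes: 9.4%). The median log2 count ratio of -0.22 was 0.06 below that of the median gene, and 12 of 20 lay below the median gene. Summed over the 20 genes, counts gave a ratio of 0.764 (0.753 to 0.775), lower than the median ratio of 0.861, since a sum is led by the abundant genes. The genes spread widely, from a log2 ratio of -0.84 for Aars to 0.48 for Iars.

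Aars, the alanyl-tRNA synthetase gene (ENSMUSG00000031960, chr8:111033144-111057664, plus strand), had 3955 counts (23.8 FPKM) with AclyE14-ASO and 7896 counts (42.6 FPKM) with Control-ASO. Its ratio was 0.558 (0.537 to 0.580), and 5.72% of measured genes had a lower one. Exosc6 overlaps Aars on the same strand by 1326 exonic bases and has no entry of its own in these data, so the reads of these genes cannot be told apart. Tars, for threonyl-tRNA synthetase, had 671 counts (19.96 FPKM) with AclyE14-ASO and 1265 counts (33.8 FPKM) with Control-ASO, a ratio of 0.591 (0.538 to 0.650). The promoters of both genes hold a GCATCA core, printed above, and so does that of Iars, which had the highest ratio of the 36 genes and the same 9 letters as Aars.

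Next came 6 genes with ratios between 0.712 and 0.759, all with intervals below 1. Yars, the tyrosyl enzyme gene, had 612 counts (6.12 FPKM) with AclyE14-ASO and 958 counts (8.59 FPKM) with Control-ASO, a ratio of 0.712 (0.642 to 0.789). Nars, the asparaginyl enzyme gene and the one with the highest deposited FPKM of the 20, had 4469 counts (133 FPKM) with AclyE14-ASO and 6819 counts (182 FPKM) with Control-ASO, a ratio of 0.731 (0.703 to 0.759). Rars, for arginine, had 3871 counts (76.7 FPKM) against 5872 counts (104 FPKM), a ratio of 0.735 (0.706 to 0.766).

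The others in that band were Gars, Eprs and Sars. Gars, for glycine, was at 48.7 FPKM with AclyE14-ASO and 65.4 FPKM with Control-ASO, a ratio of 0.745 (0.706 to 0.786). Eprs, whose product charges both glutamate and proline tRNAs, was at 5.50 FPKM against 7.37 FPKM, a ratio of 0.746 (0.698 to 0.797). Sars, for serine, was at 30.0 FPKM against 39.6 FPKM, a ratio of 0.759 (0.721 to 0.798). The exons of Yars overlap those of C77080 on the other strand by 30 bases. The summed counts of that pair had a ratio of 0.631 (0.586 to 0.679), beyond 1.5-fold.

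Kars, Lars, Wars, Mars and Qars had ratios from 0.830 to 0.905, around that of the median gene (0.896). Kars, for lysine, was at 37.9 FPKM with AclyE14-ASO and 45.7 FPKM with Control-ASO, a ratio of 0.830 (0.771 to 0.892). Mars, for methionine, was at 13.2 and 14.8 FPKM, and Qars, for glutamine, at 5.37 and 5.93 FPKM. These 3 genes lay slightly lower with AclyE14-ASO, as the median gene did. Wars, the tryptophanyl enzyme gene, which in human cells is induced by interferon-gamma, was at 33.2 FPKM with AclyE14-ASO and 38.3 FPKM with Control-ASO, a ratio of 0.868 (0.819 to 0.920). For Farsa and Farsb, the subunits of phenylalanyl-tRNA synthetase, and for Cars, Hars and Dars, the counting intervals included 1. Cars, for cysteine, was at 21.7 FPKM with AclyE14-ASO and 22.9 FPKM with Control-ASO, with a counting interval of 0.890 to 1.01 around the ratio. Hars, for histidine, was at 37.1 and 37.0 FPKM (interval 0.918 to 1.10), and Dars, for aspartate, was at 6.68 and 6.49 FPKM (ratio 1.03, 0.898 to 1.18). The libraries differed little for these genes. Hars shares 195 exonic bases with Hars2 on the other strand, and their summed counts had a ratio of 0.994. Farsa and Farsb stayed close to each other, with ratios of 0.926 (0.819 to 1.05) and 0.917 (0.788 to 1.07).

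Vars and Iars were the only synthetase genes with an interval above 1. Vars, for valine, had 461 counts (3.73 FPKM) with AclyE14-ASO and 441 counts (3.199 FPKM) with Control-ASO, a ratio of 1.17 (1.02 to 1.33). Iars, for isoleucine, had 1177 counts (13.7 FPKM) with AclyE14-ASO and 942 counts (9.85 FPKM) with Control-ASO, a ratio of 1.39 (1.28 to 1.52), and 88.4% of measured genes had a lower one. Leucine, isoleucine and valine share a branched side chain, but Lars lay on the other side of 1, with 714 counts (14.5 FPKM) against 932 counts (17.0 FPKM) and a ratio of 0.854 (0.774 to 0.943).

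**Figure D3:**
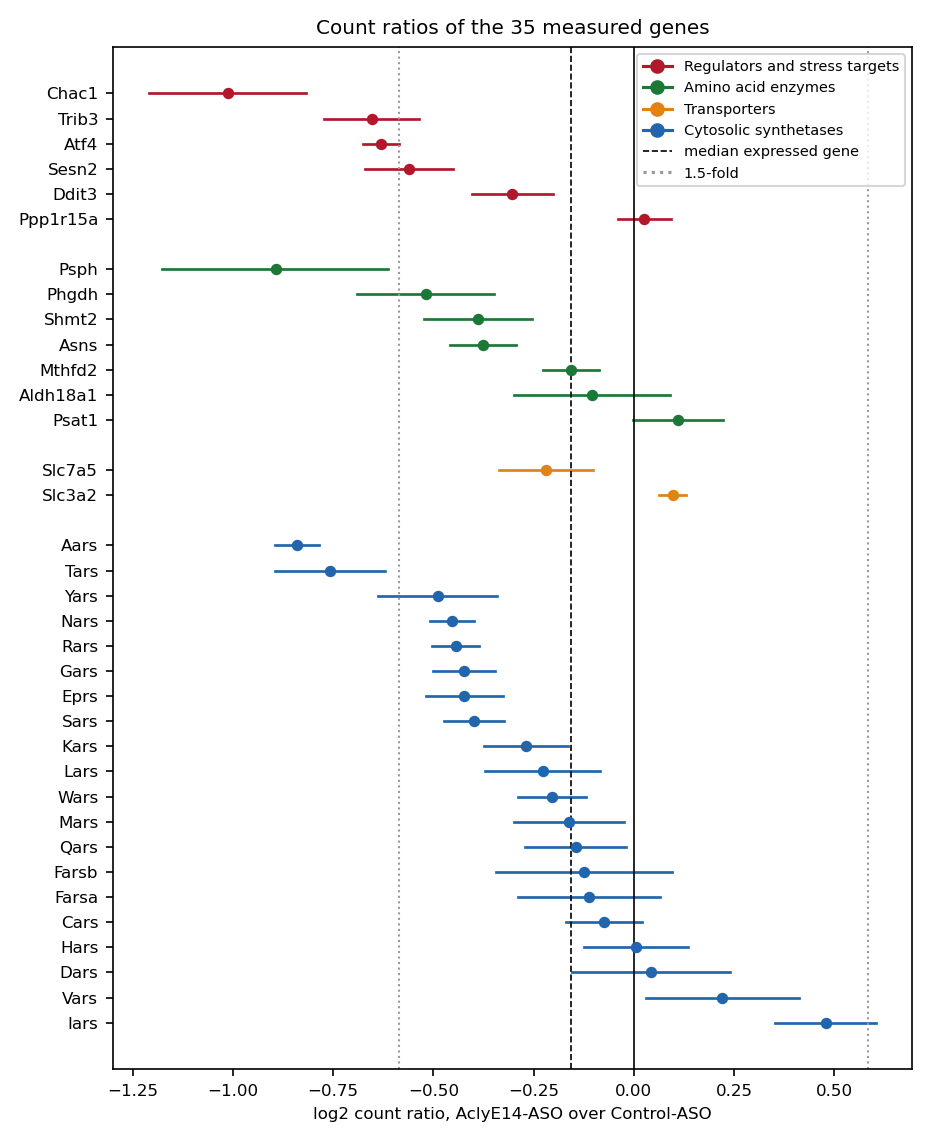
Log2 count ratios, AclyE14-ASO over Control-ASO, of the 35 measured genes (points) with 95% counting intervals (bars), sorted within each role; the solid line marks no difference, the dashed line the median measured gene and the dotted lines 1.5-fold. Chac1 at -1.01, Psph at -0.89, Aars at -0.84 and Tars at -0.76 are the lowest, and Iars at 0.48 is the highest.

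The synthetases were also divided by known structure, a division added after their values were seen. Class I and class II enzymes have unrelated catalytic folds. The 10 class II genes had a median log2 ratio of -0.33, with 2 lower by 1.5-fold, and the 10 class I genes had a median of -0.18, with 0. Eprs, at a log2 ratio of -0.42, was counted in class I only, although the prolyl part of its product is of class II. Over all measured genes 14.4% were lower, so 2 of 10 is near that share. Of the enzymes, 8 join a cytosolic complex held together by scaffold proteins, and their genes had a median of -0.19, against -0.30 for the 12 genes outside it. The scaffold genes Aimp1, Aimp2 and Eef1e1 all lay within 1.5-fold. Eef1e1 was at 32.6 FPKM with AclyE14-ASO and 39.2 FPKM with Control-ASO, Aimp1 at 3.31 and 3.30 FPKM, and Aimp2 at 3.84 and 3.37 FPKM. These ranges overlap widely, and no difference between the divisions was tested.

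Genes that hold the response element can be set beside those that do not. The 8 measured genes with a match had a median log2 ratio of -0.57, and 7 of them lay below the median gene. The 18 measured genes with a matched promoter and no match had a median of -0.21, with 9 below the median gene. Iars was the exception among the genes with a match. Across all measured genes in the promoter table the order was the other way: 192 genes with a match had a median of -0.12 and the rest a median of -0.17. None of these differences was tested.

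**Figure D4:**
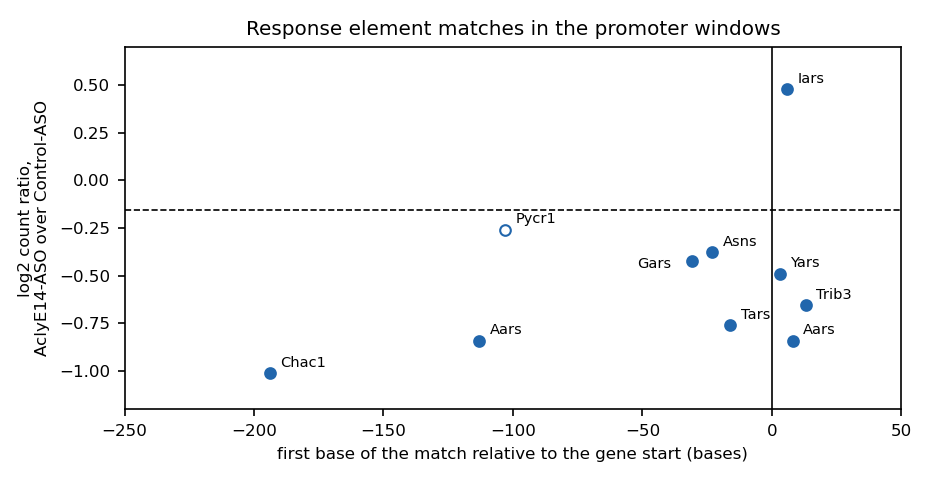
Position of each match to the response element, as the distance of its first base from the gene start in bases (x axis; 0 is the start), against the log2 count ratio of the gene, AclyE14-ASO over Control-ASO (y axis); the open point is Pycr1, which was below 1 FPKM, and Aars appears at both of its matches. The dashed line is the median measured gene; Iars, at 0.48, is the only gene above it.

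Related genes outside the 36 had a higher median. Of 80 measured genes in 8 lists 7 were lower by 1.5-fold (8.75%, under the 14.4% of all measured genes) and 4 were higher (all measured genes: 9.4%). Their median log2 ratio was -0.10, or 0.0024 with TMM. The listed genes for mitochondrial synthetases were mostly scarce, and 7 of 17 were measured. This list holds no separate gene for glycine, lysine or glutamine. Of the 7, 0 were lower by 1.5-fold (all measured genes: 14.4%) and 0 were higher (9.4%), with a median of -0.27. Iars2 was the lowest of the 7, at 2.97 FPKM with AclyE14-ASO and 4.41 FPKM with Control-ASO (ratio 0.674, 0.596 to 0.761). Without the filter the median was -0.28. Below 1 FPKM and on few counts, Aars2 (ratio 0.486), Mars2 (0.411) and Pars2 (0.579) were beyond 1.5-fold lower, and none was beyond 1.5-fold higher.

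Upstream of ATF4, a list of 16 genes covered eIF2, its kinases, its exchange factor and other genes linked to eIF2 control. Of the 16, 3 were lower by 1.5-fold (18.75%, near the 14.4% of all measured genes) and 0 were higher (all measured genes: 9.4%). The list median was -0.17. Impact, an inhibitor of the amino acid sensor GCN2, was at 2.61 FPKM with AclyE14-ASO and 5.02 FPKM with Control-ASO (ratio 0.519, 0.412 to 0.650). Eif2ak4, the gene for GCN2 itself, was at 1.89 and 2.88 FPKM (ratio 0.658, 0.552 to 0.782), and Eif2b3, an exchange factor subunit, at 1.04 and 1.61 FPKM (ratio 0.647, 0.501 to 0.832). Ppp1r15b, the constitutive partner of the eIF2 phosphatase and the most abundant of the list, was at 80.0 and 77.2 FPKM. At the upper end, Nck1, an adaptor protein gene, was at 12.3 and 9.34 FPKM (ratio 1.32, 1.20 to 1.45), and Eif2s3x, an eIF2 subunit gene, at 9.72 and 7.99 FPKM (ratio 1.22, 1.07 to 1.38).

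Of 28 other genes linked to ATF4 20 were measured, with a median log2 ratio of -0.17. Without the filter on low values the median was 0.0766. None was lower by 1.5-fold (all measured genes: 14.4%) and 1 was higher (all measured genes: 9.4%). That gene was Ddit4, an inhibitor of mTORC1, with 230 counts (10.7 FPKM) with AclyE14-ASO and 80 counts (3.34 FPKM) with Control-ASO, a ratio of 3.21 (2.47 to 4.19). Cebpb, the gene for an ATF4 partner, was at 140 and 98.2 FPKM (ratio 1.43, 1.35 to 1.51). At the other end, Eif4ebp1, a translation repressor, was at 72.1 and 102 FPKM (ratio 0.708, 0.651 to 0.770), and Xpot, the tRNA exporter, at 11.9 and 16.8 FPKM (ratio 0.709, 0.652 to 0.771). Sqstm1, the most abundant, was at 355 and 384 FPKM.

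Of the other serine and folate enzymes 7 of 15 were measured, with a median log2 ratio of -0.02. The sign of that median turned with the setting: it was 0.0855 with TMM, 0.37 without the filter and -0.32 at a mean of at least 5 FPKM. Mthfd1l, the mitochondrial formate-producing enzyme, was higher (1.56 FPKM with AclyE14-ASO and 0.911 FPKM with Control-ASO; ratio 1.71, 1.26 to 2.33), and Mtr, methionine synthase, was lower (1.84 and 2.98 FPKM; ratio 0.616, 0.481 to 0.786). Mthfd1l passed 1 FPKM only in the AclyE14-ASO library. Of 9 other proline and glutamate enzymes 8 were measured, with a median of -0.15. Of 8 translation elongation and termination factors Gspt1, a release factor, was lower (14.1 and 21.9 FPKM; ratio 0.643, 0.598 to 0.691), while the abundant Eef1a1 was at 991 and 1016 FPKM (list median -0.05, or 0.0516 with TMM).

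The IRE1 and ATF6 arms of the unfolded protein response had a list median of 0.22 over 11 measured genes. The chaperone gene Hspa5 (ratio 1.57, 1.52 to 1.61) and Pdia4, a disulfide isomerase (ratio 1.51, 1.34 to 1.71), were higher, and Dnajb9, a co-chaperone of Hspa5, was lower (ratio 0.626, 0.550 to 0.712).

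**Figure D5:**
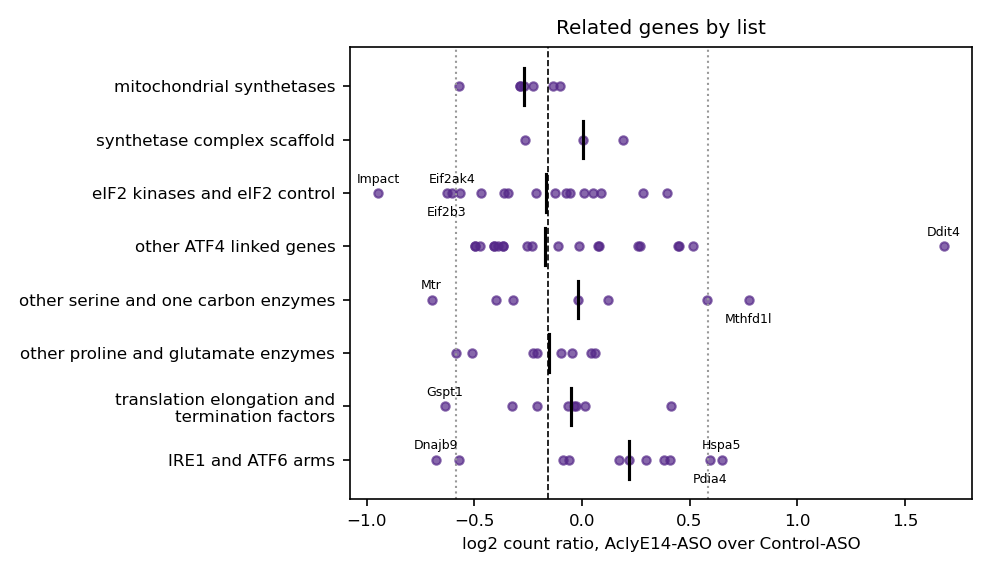
Log2 count ratios, AclyE14-ASO over Control-ASO, of measured genes in 8 related lists (points; black bars are list medians); the dashed line marks the median measured gene, the dotted lines 1.5-fold, and most genes beyond 1.5-fold are named. Ddit4, at 1.68, stands farthest from the dashed line, and the list medians run from -0.27 to 0.22.

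Levels of different genes depend on the length used by the authors. The length implied by the deposited FPKM was 0.658 to 4.87 times that of the longest protein-coding transcript in GENCODE M21 (median 1.72) over the 36 genes. For Qars it was 13646 nt against 2800 nt, and for Eprs 21103 nt against 4906 nt. With transcript lengths, in the AclyE14-ASO library, Qars moved to rank 19 of 36 in place of rank 33, Eprs to rank 21 in place of rank 32, and Tars to rank 31 in place of rank 19. Slc3a2 then ranked above Atf4 in the AclyE14-ASO library, at 367 and 288 FPKM. Rars then ranked above Nars in both libraries, at 144 and 128 FPKM with AclyE14-ASO and at 196 and 175 FPKM with Control-ASO. Ratios between the libraries do not depend on this length.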

How the data were processed

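Column-purified RNA was made into Illumina libraries, and the labels' protocols name a stranded kit and beads that capture mRNA. The deposited table holds raw counts and FPKM values per Ensembl gene for each library, as its file headers show. The submitters' processing notes list the mm10 build and, with no role, HISAT2, edgeR and StringTie 1.3.0. How the authors used strand and shared reads in counting is not stated in what was used here. The deposited FPKM equals counts per summed gene counts and 1 fixed length per gene: the quotient of FPKM and counts was 1.1148 to 1.1149 times higher in the AclyE14-ASO library over the 10077 genes with more than 20 counts in both. Symbols were matched to GENCODE M21 (GRCm38, also called mm10) for 34267 of 34745 identifiers. Ddit3 has a second identifier in GENCODE M21, which has no entry in these data.

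Count ratios per library total, AclyE14-ASO over Control-ASO, carry no pseudocount. Their 95% intervals are exact (Clopper-Pearson, conditional binomial) and cover counting error only; the files carry no molecular identifiers, so copies of 1 molecule cannot be told apart. With 1 library per group no test was run and no p-value is given. The genes and lists were chosen with earlier results of these data known. Named genes were all 36, Acly and, per related list, up to 3 at each end and the most abundant (not all are reported, and 1 that the rule selects is not reported here). A list's interval ran from the median of its genes' lower bounds to that of their upper bounds. Promoters are from RefSeq (GRCm38.p6). Alternatives were pseudocounts of 1, 0.1 and 5 on FPKM, centring on the median gene at 5 FPKM or more, TMM factors (edgeR 4.0.16), size factors (DESeq2 1.42.0), other filters, other fold limits, and summed counts of overlapping genes. Sums over opposite-strand neighbours, transcript lengths and the synthetase divisions were chosen after seeing the data. Python 3.11.15, NumPy 2.4.6, pandas 2.3.3, SciPy 1.17.1 and R 4.3.3 were used. The calculation was run on simulated counts that held planted changes and counting error only. That run cannot speak to variation between cultures or libraries.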

Additional observations from a re-analysis of the deposited data

How the results depend on the processing

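No paired analysis was possible because each group had 1 library, and no library could be left out. The count of 6 lower genes among the 36 became 4 with FPKM + 5, centring, TMM or DESeq2 size factors, 5 at a mean of at least 5 FPKM, 16 at a log2 limit of 0.32 and 1 at 2-fold. The count of 0 higher genes became 1 (Iars) with centring and 1 at a log2 limit of 0.32. Aars, Chac1 and Tars stayed lower under every scaling, pseudocount and filter run; Atf4 and Trib3 did not under centring, TMM or DESeq2. Centring, which adds 0.14 to each log2 ratio, gave role medians of -0.46 (regulators), -0.24 (amino acid enzymes), 0.0786 (transporters) and -0.0762 (synthetases). DESeq2 gave -0.49 for the regulators and 0.0427 for the transporters, and TMM 0.0407 for the transporters. Summed count ratios under TMM and centring were 0.781 and 0.802 (regulators), 0.910 and 0.934 (amino acid enzymes), 1.13 and 1.16 (transporters) and 0.820 and 0.842 (synthetases), against 0.728, 0.848, 1.05 and 0.764 by library totals. Over the related lists the 4 higher genes became 2 with FPKM + 1 or FPKM + 5, 8 with centring and 10 without a filter. The 7 lower genes became 3 with FPKM + 1, 4 with FPKM + 0.1, 0 with FPKM + 5, 1 with centring, 2 with TMM, DESeq2 or the stricter filter, and 11 without a filter. The median log2 ratio of these lists together, -0.10, became 0.0024 with TMM, 0.0044 with DESeq2 and 0.0403 with centring. The scaffold median of 0.01 became -0.27 at 5 FPKM. Adding a constant to every ratio or to FPKM moves genes near the limit by construction. Without replicates, depth limits only the counting error, which is widest for Pycr1 (0.239 to 2.75).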
